A study of Mus musculus with 6 samples.

Results

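Malat1, Neat1 and 7 snoRNA host genes (Gas5, Snhg1, Snhg3, Snhg5, Snhg6, Snhg8 and Snhg12) were followed in mouse splenic plasma cells. They were taken by symbol, 9 of the 24346 symbols for which each library holds a value, and all 9 were found. The study compared 3 IgG1 libraries with 3 IgM libraries. In both groups the sorted cells descended from congenically marked B1-8germ donor B cells, which carry a heavy chain knocked in that recognises the hapten NP, transferred into C57BL/6J wild-type hosts. Both groups of hosts had received NP-CGG in alum on day 0, and splenic donor plasma cells were sorted on day 7 as IgG1 or as IgM. No source used here gives the ages of the animals or says whether animals were pooled. Nor do the labels tie replicate libraries to different animals, and the p-values below therefore speak only of variation among the 6 libraries, part of which may be technical.

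Malat1 and Neat1 are long noncoding RNAs that stay in the nucleus. Malat1 collects in nuclear speckles, where splicing factors are stored, and Neat1 is the scaffold on which paraspeckles form. The snoRNA host genes are transcribed and spliced like messenger RNAs, but their introns carry small nucleolar RNAs that guide the chemical modification of ribosomal RNA. C/D snoRNAs guide ribose methylation and H/ACA snoRNAs guide pseudouridylation. The spliced host RNAs code for little or no protein, several start with a pyrimidine tract like those of ribosomal protein genes, and several are known targets of nonsense-mediated decay, which is coupled to translation. Plasma cells make antibody at a high rate and depend on ribosomes to do so.

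Against the name under which the 9 genes were grouped, none was abundant here. Over all 6 libraries 0 of the 9 had a mean above the 90th percentile of the genes tested, which was 137 FPKM (fragments scaled to transcript length and to depth). A mean under the median of the genes tested, 12.8 FPKM, was found for 5 of the 9. Snhg6 had the highest mean, 42.5 FPKM, at percentile 75.5, and Snhg12 the lowest, 2.62 FPKM, at percentile 15.1. They are therefore called the noncoding and snoRNA host genes below.

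The sequences that define the 2 kinds of gene are given first. Malat1 is a single-exon RNA of 6983 nt at chr19:5795690-5802672 on the minus strand (GRCm38, the assembly that mm10 names, GENCODE vM21). Its mature end is not made by polyadenylation but by cleavage in front of a tRNA-like small RNA, the mascRNA, and lies just after a genome-encoded run of A. The stretch at chr19:5795924-5796021 on the minus strand is shown because the cDNA kit used primes on A tails. Capitals mark the run of 12 A, and the last 58 bases are the mascRNA.
Malat1 3′ end: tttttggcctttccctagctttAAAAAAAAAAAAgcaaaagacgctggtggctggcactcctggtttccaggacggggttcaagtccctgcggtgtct

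Neat1 lies beside it at chr19:5824708-5845478 on the minus strand and is annotated with a short isoform of 3004 nt and a long isoform of 20771 nt that share their start. The long isoform is the one that builds paraspeckles, and a single FPKM per gene cannot tell them apart.

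Inside the 7 host genes 27 snoRNAs are annotated on the same strand. Gas5 (chr1:161034422-161038539, plus strand) holds 9, Snhg1 (chr19:8723475-8726443, plus) holds 8 and Snhg12 (chr4:132308623-132311024, plus) holds 4. Snhg3 (chr4:132348014-132353686, minus) and Snhg5 (chr9:88521050-88522929, minus) hold 2 each. Snhg6 (chr1:9941959-9944118, minus) and Snhg8 (chr3:123507552-123508404, minus) hold 1 each. One snoRNA is printed for 6 of the hosts, to show what each host carries, from the GRCm38 genome with the strand of the host. Capitals mark the C box (ATGATGA or GTGATGA) and the D box (CTGA) of the C/D snoRNAs, or the ACA box near the 3′ end of the H/ACA snoRNAs.
Snord47 in Gas5, chr1:161038082-161038158, plus strand: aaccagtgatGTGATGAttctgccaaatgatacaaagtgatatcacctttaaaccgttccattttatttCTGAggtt
Snord50a in Snhg5, chr9:88521529-88521600, minus strand: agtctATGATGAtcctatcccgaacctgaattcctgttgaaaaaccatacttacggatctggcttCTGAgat
Snord87 in Snhg6, chr1:9942463-9942549, minus strand: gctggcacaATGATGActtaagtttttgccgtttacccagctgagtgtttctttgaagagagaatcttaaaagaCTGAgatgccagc
Snora73b in Snhg3, chr4:132352322-132352526, minus strand: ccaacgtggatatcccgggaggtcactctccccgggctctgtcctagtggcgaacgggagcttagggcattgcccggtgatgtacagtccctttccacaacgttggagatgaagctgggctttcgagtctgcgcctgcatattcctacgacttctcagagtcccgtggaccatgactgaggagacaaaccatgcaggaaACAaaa
Snora24 in Snhg8, chr3:123507937-123508066, minus strand: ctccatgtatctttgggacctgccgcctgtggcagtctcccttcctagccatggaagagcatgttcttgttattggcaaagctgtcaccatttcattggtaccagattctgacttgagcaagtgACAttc
Snora16a in Snhg12, chr4:132309464-132309600, plus strand: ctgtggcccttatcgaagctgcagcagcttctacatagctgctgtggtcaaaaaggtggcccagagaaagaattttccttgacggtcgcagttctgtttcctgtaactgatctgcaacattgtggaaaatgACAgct

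By these boxes 15 of the 27 were of the C/D kind and 5 of the H/ACA kind, and in 7 neither set of letters was found where it was sought. The C box was sought only near the 5′ end and the D box only near the 3′ end. The ACA box was sought only near the 3′ end of the longer snoRNAs. Gm24453 in Snhg1, left without a kind, does hold ATGATGA, but farther in than the stretch searched. Of the 27, 20 lay in introns of the transcript that GENCODE matches to RefSeq, and 7 overlapped its exons. Those 7 were 6 of the snoRNAs of Gas5, whose matched transcript of 2556 nt keeps several introns, and Snora24, which lies within the single exon of Snhg8.

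**Figure D1:**
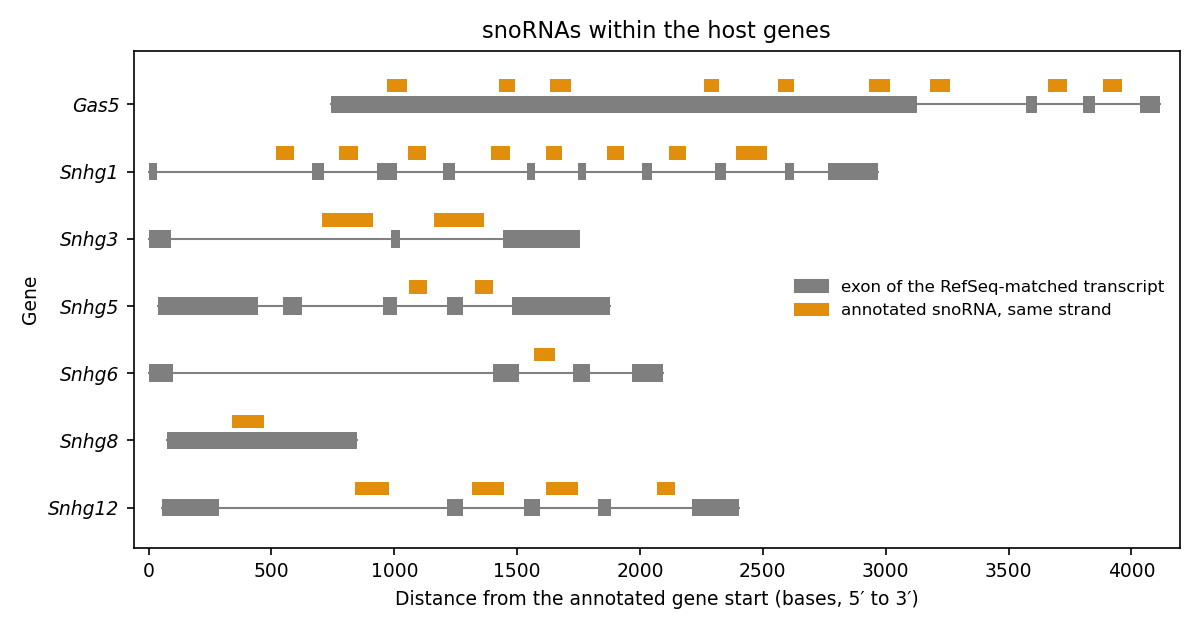
Position of the annotated snoRNAs (orange, 27 in all) above the exons (grey) of the RefSeq-matched transcript of each of the 7 host genes, in bases from the annotated gene start, 5′ to 3′. Gas5 holds 9 snoRNAs, Snhg8 holds 1 inside its only exon, and the exons of Gas5 cover 6 of its 9.

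Promoter sequences are shown because snoRNA hosts are known for pyrimidine-rich starts. RefSeq start sites matched 7 of the 9 genes, not Neat1 and Snhg6, and gave 8 starts, since Gas5 has 2. Each sequence runs from 40 bases before the start to 20 bases after it (GRCm38.p6). Capitals mark TATAA where it began 40 to 20 bases before the start, and a C with at least 4 more pyrimidines (C or T) that began within 5 bases of the start, both on the transcribed strand.
Malat1, chr19:5802653-5802712, minus strand: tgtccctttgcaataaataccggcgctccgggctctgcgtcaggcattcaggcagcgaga
Gas5 start 1, chr1:161034561-161034620, plus strand: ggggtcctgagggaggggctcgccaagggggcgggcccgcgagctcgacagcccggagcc
Gas5 start 2, chr1:161035126-161035185, plus strand: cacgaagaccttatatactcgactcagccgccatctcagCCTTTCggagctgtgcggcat
Snhg1, chr19:8723447-8723506, plus strand: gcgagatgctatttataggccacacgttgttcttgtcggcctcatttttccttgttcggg
Snhg3, chr4:132353667-132353726, minus strand: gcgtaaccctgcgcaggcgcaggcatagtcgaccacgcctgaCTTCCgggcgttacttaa
Snhg5, chr9:88522878-88522937, minus strand: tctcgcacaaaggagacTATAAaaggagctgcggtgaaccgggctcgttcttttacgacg
Snhg8, chr3:123508317-123508376, minus strand: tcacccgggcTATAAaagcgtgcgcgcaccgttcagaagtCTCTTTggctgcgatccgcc
Snhg12, chr4:132308638-132308697, plus strand: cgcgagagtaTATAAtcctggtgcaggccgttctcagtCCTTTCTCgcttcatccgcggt

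TATAA was found at 3 of the 8 starts (Snhg5, Snhg8 and Snhg12), against 3.52% of 32851 mouse starts. Its reverse complement, TTATA, which shares letters with it, was found in the same window at 2 of the 8 starts, against 1.68% of all starts. The pyrimidine run was found at 4 of the 8 (Gas5 start 2, Snhg3, Snhg8 and Snhg12), against 18.3% of all starts. Among 91 starts of genes whose symbol begins with Rpl or Rps and a digit, 6.59% had TATAA and 39.6% the pyrimidine run. That set was taken by symbol alone, so it can hold genes that do not code for ribosomal proteins and miss some that do. A match describes the letters in these windows and is not a measured site.

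Facts that touch all 9 genes concern the libraries. The smallest step in the FPKM gave an estimated 15600000 to 16000000 fragments in the IgG1 libraries and 16400000 to 18100000 in the IgM libraries. Of the 9087 genes tested, 74, 243 and 288 were at 0 in IgG1 libraries 1 to 3, against 27 to 60 in the IgM libraries. Each library's deviations from the gene means were correlated with transcript length across genes, with Spearman rho from -0.25 to -0.14 in IgG1 and from 0.15 to 0.31 in IgM, so the length trend moved with the groups. For this reason a value with each library's trend in length and GC content removed stands beside the result of each gene. All 8 plasma cell markers reached at least 1 FPKM in every library, with summed levels of 36770 to 39350 FPKM in IgG1 and 44300 to 50170 FPKM in IgM. Markers of B cells that are not plasma cells summed to 97.3 to 122 FPKM in IgG1 and 122 to 153 FPKM in IgM. Of these 6 markers 5 were above 0 in some library, and 2 reached at least 1 FPKM in every library. Ms4a1 was the highest, at up to 79.2 FPKM, and Pax5 was at 0 in all 6 libraries. Those of T cells summed to 1.13 to 8.36 FPKM in IgG1 and 2.15 to 4.73 FPKM in IgM. Myeloid markers summed to 0.187 to 6.08 FPKM in IgG1 and 5.92 to 10.7 FPKM in IgM. Of these 8 markers 5 were above 0 in some library, Lyz2 the highest at up to 8.44 FPKM. S100a8, S100a9 and Mpo were at 0 in all 6 libraries. The part of other cells in the results was not tested. Of the 24346 symbols used here, 0 were matched by name as immunoglobulin heavy or light chain genes. The isotype could not be checked and is taken from the label.

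None of the 9 genes passed the threshold between IgG1 and IgM plasma cells. With limma on log2(FPKM + 1) and Benjamini-Hochberg adjustment over 9087 genes, 0 of 9 had an adjusted p under 0.05, against 6.02% of all genes tested (4.26% higher in IgG1 and 1.76% lower). An unadjusted p under 0.05 was reached by 1 of the 9, Malat1, against 22.2% of all genes tested. The log2 fold change (IgG1 minus IgM) was positive for 3 of the 9 and negative for 6, with a median of -0.34, beside -0.046 over all genes tested. The FPKM of all symbols summed to 855123, 878039 and 914019 in IgG1 libraries 1 to 3 and to 730695, 806599 and 757519 in IgM libraries 1 to 3. Jchain, the joining chain of secreted antibody and the most abundant marker, reached at most 28580 FPKM. Scaled to an equal FPKM sum without Jchain, which evens these unequal sums as well, the libraries gave 177 genes higher and 393 lower in place of 387 and 160. That scaling moved the median of all genes by -0.21, and the 9 genes kept their signs under it. The groups did not overlap for 1 of the 9, Snhg8, against 27.2% of all genes tested (13.7% with IgG1 higher and 13.5% with IgG1 lower). In these bulk samples fewer cells of a type and less RNA per cell cannot be told apart.

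Malat1 stood at 42.7, 28.5 and 30.5 FPKM in IgG1 libraries 1 to 3, against 60.8, 36.5 and 49.7 FPKM in IgM libraries 1 to 3. IgG1 libraries 2 and 3 lay below every IgM library, while IgG1 library 1 lay above IgM library 2, so the groups overlapped. The means were 33.9 ± 7.70 FPKM in IgG1 and 49.0 ± 12.2 FPKM in IgM (SD, n = 3 each). The log2 fold change was -0.51 (SE 0.23, 95% interval -1.02 to -0.007), with a limma p of 0.0472 and a Benjamini-Hochberg adjusted p of 0.219. It was -0.21 with the length and GC trends removed. These values rest on about 3094 to 4705 fragments per IgG1 library and 4257 to 6990 per IgM library. Ranked among all symbols above 0 in its library, Malat1 averaged percentile 76.1 in IgG1 and 83.1 in IgM (two-sided exact permutation p = 0.2, where 3 against 3 allows 0.1 at the least).

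Neat1 had 9.05, 4.58 and 1.79 FPKM in IgG1 libraries 1 to 3, and 10.6, 5.08 and 9.41 FPKM in IgM libraries 1 to 3. Library 3 of IgG1 was the lowest of the 6 and library 1 lay inside the range of IgM, so the groups overlapped. The level averaged 5.14 ± 3.66 FPKM in IgG1 and 8.36 ± 2.90 FPKM in IgM (SD, n = 3 each), a coefficient of variation of 71.3% in IgG1 and 34.7% in IgM. On the log2 scale the difference was -0.74 (SE 0.49, 95% interval -1.81 to 0.32, limma adjusted p = 0.412), and -0.44 with the trends removed. It was -0.27 without IgG1 library 3 and -1.19 without IgG1 library 1. Neat1 varied more within groups than 87.7% of the genes tested. The ratio of Malat1 to Neat1 was 4.72, 6.22 and 17.03 in IgG1 libraries 1 to 3 and 5.75, 7.19 and 5.29 in IgM libraries 1 to 3 (exact permutation p = 0.8 on the log2 ratio). Only IgG1 library 3 left the range of 4.72 to 7.19.

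**Figure D2:**
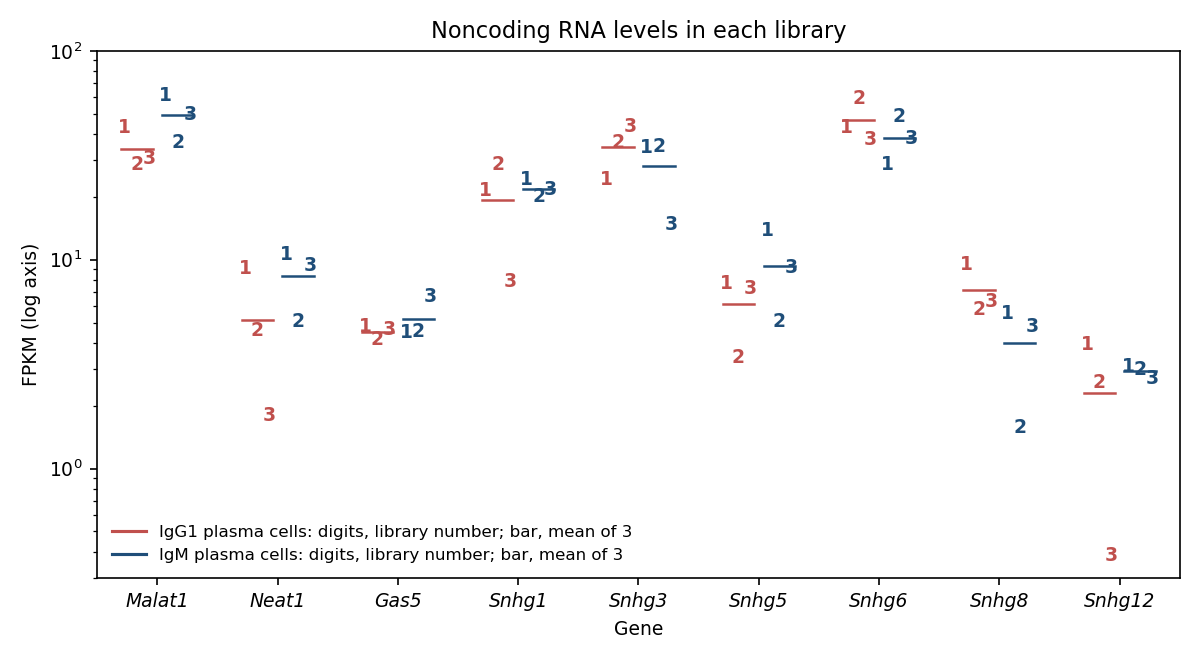
FPKM of each gene on a log axis, with IgG1 libraries (red) left of IgM libraries (blue), digits for the library number and a bar at the mean of 3. Only Snhg8 had groups that do not overlap, and IgG1 library 3 was the lowest of the 6 for Neat1 (1.79), Snhg1 (7.83) and Snhg12 (0.384).

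Among the hosts of C/D snoRNAs, Gas5, known for growth arrest and as the host with many snoRNAs, showed 4.77, 4.14 and 4.64 FPKM in IgG1 libraries 1 to 3 and 4.49, 4.51 and 6.63 FPKM in IgM libraries 1 to 3. IgM library 3 stood above the other 5 values, which lay between 4.14 and 4.77 FPKM. The log2 fold change was -0.16 (SE 0.37, 95% interval -0.95 to 0.64, limma adjusted p = 0.848), and 0.002 with the trends removed or without IgM library 3. The rank of Gas5 within its library did not overlap between the groups, at percentiles 39.9 to 43.1 in IgG1 and 43.4 to 48.9 in IgM. Its exact permutation p was 0.1, the smallest possible, and 0.6 when adjusted by Benjamini-Hochberg over the 12 single values compared. All ranks here are among symbols above 0, and 12896 to 13481 symbols were at 0 in the IgG1 libraries, against 12159 to 12560 in IgM. IgG1 library 1 thus ranked below IgM library 1 (43.1 against 43.4) at a higher FPKM (4.77 against 4.49). How many of all genes have ranks that separate the groups was not counted.

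Snhg1, with a snoRNA in nearly every intron, had 21.5, 28.4 and 7.83 FPKM in IgG1 libraries 1 to 3 and 24.1, 19.97 and 21.6 FPKM in IgM libraries 1 to 3. IgG1 held both the highest and the lowest value, while the IgM libraries lay close together. Means were 19.2 ± 10.5 FPKM in IgG1 and 21.9 ± 2.09 FPKM in IgM (SD, n = 3 each), and the log2 fold change was -0.34 (SE 0.38, 95% interval -1.17 to 0.49, limma adjusted p = 0.658). It was -0.67 with the trends removed. Without IgG1 library 3 the sign turned, to 0.17. That library held about 76 fragments of Snhg1, against 202 to 268 in the other 5.

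Snhg5, the host of Snord50a and Snord50b, was measured at 7.69, 3.41 and 7.26 FPKM in IgG1 libraries 1 to 3, against 13.7, 5.09 and 9.22 FPKM in IgM libraries 1 to 3. In both groups library 2 was the lowest, and the ranges overlapped. Its log2 fold change was -0.51 (SE 0.43, 95% interval -1.44 to 0.42, limma adjusted p = 0.535), and -0.72 with the trends removed. It was -0.20 without IgG1 library 2, -0.21 without IgM library 1 and -0.85 without IgM library 2.

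Snhg6, the host of Snord87, had 43.1, 59.04 and 37.6 FPKM in IgG1 libraries 1 to 3 and 28.7, 48.5 and 38.0 FPKM in IgM libraries 1 to 3. Library 2 was the highest of each group and the ranges overlapped. The log2 fold change was 0.28 (SE 0.24, 95% interval -0.23 to 0.79, limma adjusted p = 0.539), and took the other sign, -0.17, with the trends removed. It was 0.098 without IgG1 library 2, 0.09 without IgM library 1 and 0.46 without IgM library 2. Exons of Snhg6 overlap those of Mcmdc2 on the opposite strand, so with no source stating that strand was used its value is uncertain to that extent.

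Among the hosts of H/ACA snoRNAs, Snhg3, whose Snora73 RNAs take part in ribosomal RNA processing, had 24.1, 36.4 and 43.2 FPKM in IgG1 libraries 1 to 3 and 34.3, 34.8 and 14.7 FPKM in IgM libraries 1 to 3. IgM library 3 stood below all others and the remaining values overlapped. The log2 fold change was 0.35 (SE 0.33, 95% interval -0.36 to 1.07, limma adjusted p = 0.582), -0.038 without IgM library 3 and -0.054 with the trends removed. Exons of Snhg3 overlap those of Rcc1 on the same strand, so the authors' assignment of shared reads bears on both. Rcc1 itself, the exchange factor of the GTPase Ran, averaged 30.0 FPKM in IgG1 and 29.8 FPKM in IgM.

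Snhg8, the host of Snora24, was the only gene of the 9 whose groups did not overlap. It had 9.46, 5.78 and 6.32 FPKM in IgG1 libraries 1 to 3, against 5.55, 1.58 and 4.79 FPKM in IgM libraries 1 to 3. All IgG1 libraries lay above all IgM libraries, by a narrow margin between IgG1 library 2 and IgM library 1. With 13.7% of all genes tested separated in this direction, 1 of 9 is near the background. The means were 7.19 ± 1.99 FPKM in IgG1 and 3.97 ± 2.11 FPKM in IgM (SD, n = 3 each), and the log2 fold change was 0.80 (SE 0.44, 95% interval -0.16 to 1.77, limma adjusted p = 0.317). With the trends removed it was 0.51, and without IgM library 2 it was 0.38. About 20 fragments in IgM library 2 and 67 to 116 in the other 5 lay behind these values.

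Snhg12 carries snoRNAs of both kinds and had the lowest mean of the 9 in both groups, though Snhg8 lay below it in IgM library 2. It had 3.95, 2.59 and 0.384 FPKM in IgG1 libraries 1 to 3 and 3.09, 2.99 and 2.71 FPKM in IgM libraries 1 to 3. IgG1 held the highest and the lowest value, the lowest of these resting on about 4 fragments, and the IgM libraries lay within a narrow range. The log2 fold change was -0.43 (SE 0.51, 95% interval -1.54 to 0.67, limma adjusted p = 0.676), and it turned to 0.10 without IgG1 library 3. With the trends removed it was -0.84.

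**Figure D3:**
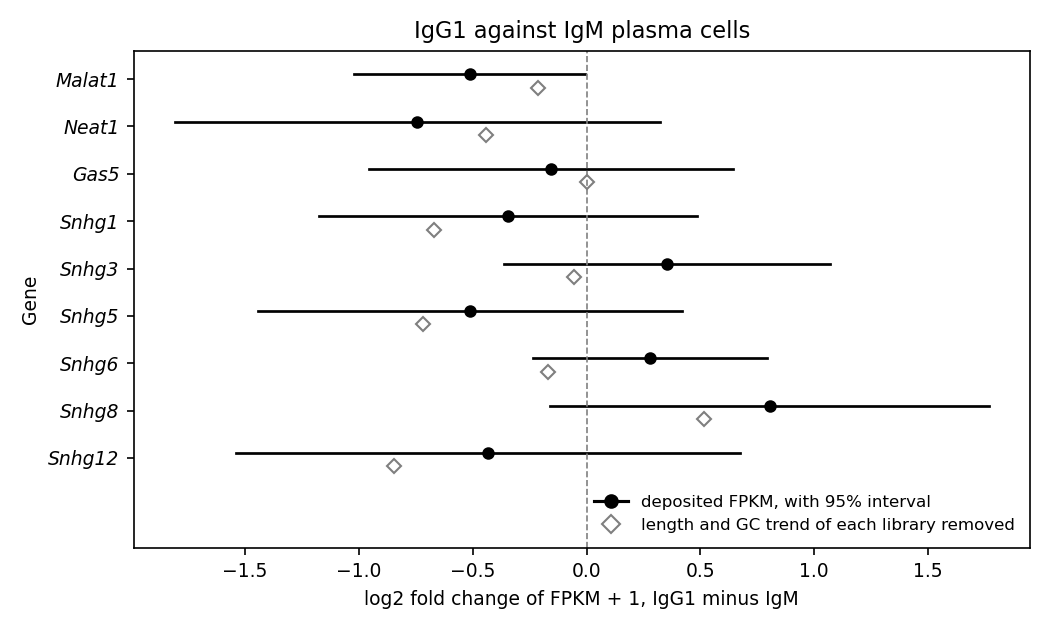
Difference between IgG1 and IgM plasma cells for each gene on the log2(FPKM + 1) scale, from limma, with 95% intervals (black), and the same value after each library's trend in length and GC content was removed (open diamonds). Only the interval of Malat1 lies below 0 (-1.02 to -0.007), and 0 of 9 genes passed the adjusted threshold by either value.

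With each library's length and GC trends removed, 2 of the 9 values were positive and 7 negative, and limma gave 0 of 9 an adjusted or an unadjusted p under 0.05, against 2.45% of all genes with an adjusted p under 0.05. Signs turned for Gas5, Snhg3 and Snhg6. Malat1 and Neat1, with the longest transcripts, moved toward 0, while Snhg1, Snhg5 and Snhg12, whose matched transcripts are 605, 1004 and 606 nt long, moved away from it. These values rest on the lengths assumed. For Neat1 it was 11890 nt, the median of isoforms of 3004 and 20771 nt, which is the length of neither. For Gas5 it was 2556 nt, the length of the matched transcript that keeps several introns. The 7 hosts together summed to 115, 140 and 107 FPKM in IgG1 libraries 1 to 3 and to 114, 117 and 97.7 FPKM in IgM libraries 1 to 3 (exact permutation p = 0.5). The difference of the means was 10.8 FPKM, 1.18 without IgG1 library 2 and 4.81 without IgM library 3. Both groups thus held overlapping totals, at 121 ± 17.1 FPKM in IgG1 and 110 ± 10.6 FPKM in IgM (SD, n = 3 each).

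The spread between libraries of a group was wide for most of the 9. Its SD on the log2 scale had a median of 0.57 over the 9 genes, beside 0.35 over all genes tested, and lay above that median of all genes in 7 of the 9. Gas5 was the steadiest, at percentile 22.8 of the genes tested, and Neat1, Snhg12 and Snhg1 varied most, at percentiles 87.7, 84.0 and 82.1. The lowest of all 6 values fell in IgG1 library 3 for 3 genes (Neat1, Snhg1 and Snhg12) and in IgG1 library 2 for 3 (Malat1, Gas5 and Snhg5). IgG1 library 3 was also the library with the most tested genes at 0, 288, whose part in these values was not tested.

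**Figure D4:**
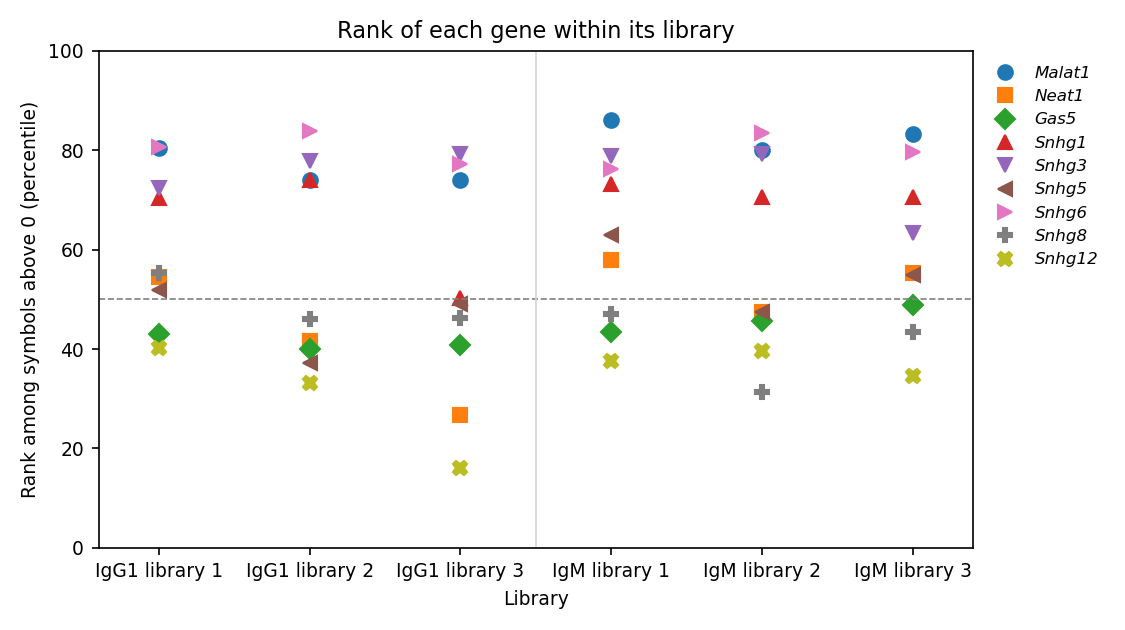
Rank of each gene among the symbols above 0 in its library, as a percentile (100 is the highest level), with IgG1 libraries left of IgM libraries and the dashed line at 50. Malat1, Snhg3 and Snhg6 stayed above 60 in all 6 libraries, and Snhg12 stayed below 41, falling to 16.1 in IgG1 library 3.

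By mean FPKM, which is per length, the order in IgG1 was Snhg6, Snhg3, Malat1, Snhg1, Snhg8, Snhg5, Neat1, Gas5 and Snhg12. Only between Malat1 and Snhg1, and between Gas5 and Snhg12, did the ranges of neighbours in this order not overlap. In IgM the order was Malat1, Snhg6, Snhg3, Snhg1, Snhg5, Neat1, Gas5, Snhg8 and Snhg12, and only Snhg1 and Snhg5 had ranges that did not overlap. All other neighbours in these orders had overlapping ranges. Among these, Snhg1 was above Snhg8 in each of the 3 IgG1 libraries and Neat1 above Gas5 in each of the 3 IgM libraries.

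The snoRNAs themselves were hardly seen. The cDNA kit primes on A tails, which mature snoRNAs lack. Of the 27 snoRNAs inside the hosts, 8 have a symbol in the tables, and 1 of these, Snora16a in Snhg12, was above 0, at 63.2 FPKM in IgM library 3 and 0 in the other 5. The other 7, Snord47, Snord22, Snord87, Snora24, Snora44, Snora61 and Snord99, were listed at 0 in all 6 libraries. Over all snoRNA and Cajal body RNA symbols, 18 of 119 were above 0 in any library and 0 in all 6, with 4, 2 and 7 above 0 in IgG1 libraries 1 to 3 and 3, 5 and 5 in IgM libraries 1 to 3. Snord17 came closest, above 0 in 5 libraries at 2.85 to 5.66 FPKM.

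Across the 6 libraries the 9 genes did not move as one. Pearson r of log2(FPKM + 1) was positive for 20 of 36 pairs, and for 9 of the 21 pairs of hosts. These are descriptions over 6 points that share library, depth and length trend. Malat1 and Neat1 had r = 0.84, Snhg1 and Snhg12 had r = 0.90, and Snhg5 and Snhg6 had r = -0.97. The genes most like each by the same measure were Cdc37l1 and Morf4l1 for Malat1 (0.992 and 0.990), Prickle3 and Zfp12 for Neat1 (0.990 and 0.989), Prpf4 and Psmd12 for Gas5 (0.985 and 0.971), Sec22b and Hspa2 for Snhg1 (0.997 and 0.995) and Rnf123 and Snrnp48 for Snhg3 (0.991 and 0.965). For Snhg5 they were Larp4 and Sass6 (0.993 and 0.990), for Snhg6 Pex14 and Rpf2 (0.983 each), for Snhg8 Apeh and Psmg2 (0.974 and 0.965) and for Snhg12 Slc25a51 and Gfm1 (0.993 and 0.988). They are the 2 highest values for each gene, taken from the tested genes over 6 libraries.

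The protein-coding neighbours of the 9 genes, 18 in all, could be tested in 10 cases. An unadjusted limma p under 0.05 was reached by 2 of the 10, beside 22.2% of all genes tested. With adjustment over all genes 1 of the 10 passed, beside 6.02% of all genes tested (1.76% lower in IgG1). That gene was Syncrip, the neighbour of Snhg5 and an RNA-binding protein of messenger RNA complexes. It had 18.2, 10.5 and 12.0 FPKM in IgG1 libraries 1 to 3, against 27.5, 29.4 and 25.4 FPKM in IgM libraries 1 to 3. The groups did not overlap, and the log2 fold change was -1.0 (SE 0.26, limma adjusted p = 0.0443). The adjusted p rose to as much as 0.188 when 1 library was left out, and was 0.198 at -0.70 with the trends removed. Slc3a2, the heavy chain of the CD98 amino acid transporter, starts 106 bases from Snhg1 on the opposite strand and averaged 158 ± 23.0 FPKM in IgG1 and 211 ± 36.8 FPKM in IgM (SD, n = 3 each). Its log2 fold change of -0.41 did not pass (limma adjusted p = 0.153). Frmd8, Wdr74, Trnau1ap, Rcc1, Zfp949 and Sgk3 had log2 fold changes from -0.91 (Zfp949) to 0.47 (Trnau1ap) and limma adjusted p from 0.283 to 0.968.

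Genes that act on these RNAs, or resemble them, were counted in 8 lists. The other noncoding snoRNA hosts gave 0 of 6 tested members past the limma threshold and 0 at an unadjusted p under 0.05, with a median log2 fold change of 0.13. Snhg9, the highest of them, had 67.8, 35.8 and 50.1 FPKM in IgG1 libraries 1 to 3 and 12.7, 28.6 and 52.3 FPKM in IgM libraries 1 to 3, which overlapped. Epb4.1l4aos, the next highest, averaged 12.2 FPKM in IgG1 and 10.8 FPKM in IgM (limma adjusted p = 0.842). The other long noncoding RNAs had a median log2 fold change of -0.47, with 5 of the 7 tested negative and 2 positive. An unadjusted limma p under 0.05 was reached by 4 of these 7, beside 22.2% of all genes tested. Past the adjusted threshold 1 of the 7 was higher, beside 4.26% of all genes tested, and 0 lower. It was Rpph1, the RNA of RNase P, the enzyme that cuts the mascRNA from Malat1. It had 68.2, 75.5 and 74.9 FPKM in IgG1 libraries 1 to 3, against 25.7, 49.7 and 17.3 FPKM in IgM libraries 1 to 3 (log2 fold change 1.34, SE 0.30, limma adjusted p = 0.0243). With the trends removed its log2 fold change was 0.48 with a limma adjusted p of 0.372. The cDNA kit primes on A tails, and how well it captures Rpph1 was not tested.

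The counts for lists of protein partners stand beside 4.26% of all genes tested higher, 1.76% lower and 22.2% at an unadjusted p under 0.05. Of the nuclear speckle proteins, with which Malat1 is associated, 1 of 17 rose and 1 fell, with a median of -0.062. An unadjusted limma p under 0.05 was reached by 7 of these 17. The splicing factor Srsf5 fell to 43.3, 30.6 and 49.1 FPKM in IgG1 libraries 1 to 3, against 85.2, 68.9 and 70.8 FPKM in IgM libraries 1 to 3 (log2 fold change -0.88, SE 0.20, limma adjusted p = 0.0261). With the trends removed Srsf5 still passed, at -0.90 with a limma adjusted p of 0.0426. Srsf7, another splicing factor, rose by 0.53 on the log2 scale (limma adjusted p = 0.0454), and did not pass with the trends removed (0.49, limma adjusted p = 0.0949). Paraspeckle proteins, the partners of Neat1, gave 0 of 17 by limma and 2 at an unadjusted p under 0.05, with a median of 0.043. Hnrnpk, needed for paraspeckles, had a log2 fold change of -0.40 (limma adjusted p = 0.0882) and groups that did not overlap. Ewsr1, an RNA-binding protein of the same list, averaged 188 FPKM in IgG1 and 195 FPKM in IgM (limma adjusted p = 0.880). Of the snoRNP proteins, which package snoRNAs, 6 of 18 had an unadjusted limma p under 0.05, and the median was 0.13. Past the adjusted threshold 2 of the 18 rose. These were the assembly factor Znhit3 (0.95, limma adjusted p = 0.0261) and the H/ACA protein Nop10 (0.62, limma adjusted p = 0.0357). Neither passed with the trends removed (Znhit3 0.75, limma adjusted p = 0.0978, and Nop10 0.43, limma adjusted p = 0.141).

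Nonsense-mediated decay factors gave 0 of 18 by limma, beside 6.02% of all genes tested, with a median of -0.20. An unadjusted p under 0.05 was reached by 4 of the 18, beside 22.2% of all genes tested. Eif4a3 of the exon junction complex stood at 0.38 with a limma adjusted p of 0.0700, and its partner Magoh at 0.30 with a limma adjusted p of 0.283. Protein-coding snoRNA hosts other than Rpl and Rps genes gave 5 of 19 at an unadjusted limma p under 0.05, beside 22.2% of all genes tested. Their median was -0.041. After adjustment 1 of the 19 passed, beside 6.02% of all genes tested. It was Gnb2l1, which is also counted among the translation factors below. Gnb2l1, the ribosomal scaffold also called Rack1, had 982, 1128 and 1295 FPKM in IgG1 libraries 1 to 3, against 643, 777 and 738 FPKM in IgM libraries 1 to 3. No values overlapped, and the log2 fold change was 0.65 (SE 0.12, limma adjusted p = 0.0122), or 0.50 with the trends removed (limma adjusted p = 0.0263).

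Translation factors whose messenger RNAs start with a pyrimidine tract gave 5 of 18 higher (27.8%, beside 4.26% of all genes tested) and 0 lower by limma (1.76%). An unadjusted p under 0.05 was reached by 9 of the 18, beside 22.2% of all genes tested. Of the 18, 16 had a positive log2 fold change, with a median of 0.29, beside -0.046 over all genes tested. Those with the largest change were Gnb2l1, Eif3k (0.65, limma adjusted p = 0.0422) and Eif3h (0.57, limma adjusted p = 0.0322). With the trends removed 1 of the 18 passed, Gnb2l1, and the median was 0.17. Quantile normalization left 11 of the 18 positive, 0 called and a median of 0.11, and rescaling without Jchain left 10 positive, 2 called and a median of 0.055. Other list medians turned sign under at least 1 scaling: rescaled without Jchain, that of the other noncoding hosts was -0.019, of the snoRNP proteins -0.089 and of the paraspeckle proteins -0.19, and median centring gave 0.013 for the nuclear speckle proteins and 0.034 for the protein-coding hosts. Each call named here, Syncrip included, missed the threshold when at least 1 library was left out. Over all 8 lists together 9 genes were higher and 1 lower, and the 9 became 0 without IgG1 library 2, without IgG1 library 3 or without IgM library 1. Over all genes, these 3 fits called 110, 121 and 78 higher. In these 3 fits with limma, 17, 20 and 16 genes of the lists were higher at an unadjusted p under 0.05. Neither the genes tested over the pooled lists nor the share of all genes at that p in these fits was counted. These counts therefore have no background to stand beside.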

How the data were processed

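RNA from 3 IgG1 and 3 IgM plasma cell libraries was measured. Per the labels' protocols, total RNA was made into cDNA with the SMART-Seq HT kit and into libraries with Nextera XT. The submitters' processing notes name mm10 as the build, and as tools Cuffdiff, Cufflinks 2.2.1, Bowtie2 2.3.5.1 and TopHat2 2.1.1. Annotation, strand use and scaling: not given in the sources used here. What was deposited are FPKM per gene symbol, per the file headers, read counts were not used here, and depth was estimated from the smallest steps in the FPKM and transcript length.

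Genes at 1 FPKM or more in at least 3 of 6 libraries (9087, all 9 genes included) were tested as log2(FPKM + 1) with limma 3.58.1 in R 4.3.3 (lmFit, eBayes with trend), IgG1 minus IgM, with Benjamini-Hochberg adjustment and a threshold of 0.05. Fold changes on this scale understate low genes. Single values were compared by two-sided exact permutation. Length and GC trends were removed per library by loess (span 0.4) for 9043 genes with a known length (99.5%), using RefSeq-matched GENCODE vM21 transcripts where present. Some older symbols were matched through RefSeq synonyms, added after a first run. RefSeq-matched lengths were preferred after the medians over all basic transcripts were seen to misstate Malat1 and Neat1. The fit was tested on simulated data with noise drawn from limma's own estimated prior. A first noise model with a wider prior recovered fewer of the changed genes than the preset criterion asked, and the noise model was then changed, so the simulation is not an independent check. The 19 alternatives were pseudocounts, filters, scalings, moderation, array weights, a replicate block, the trends with and without a block, and each library left out.

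Named genes were all 9 genes, up to 3 called genes per list and direction with the largest change (with none called, the 2 with the highest mean), the neighbours and the 2 most similar genes for each. Neighbours under the filter are counted and not described, and some genes that the rule took are not reported here. The members and the lists were chosen with earlier results of these data known.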

Additional observations from a re-analysis of the deposited data

How the results depend on the processing

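Under the 19 alternatives 0 of 169 values of the 9 genes had a limma adjusted p under 0.05, while 10 had an unadjusted p under 0.05 (8 of these Malat1). The other sign was taken by 10 of the 169. Malat1, Neat1, Snhg5 and Snhg8 kept their sign in all. Gas5 and Snhg12 could not be tested with a filter at 5 FPKM. With the length and GC trends removed, with or without the replicate block, Gas5 came to 0.002, Snhg3 to -0.054 and Snhg6 to -0.17 on the log2 scale. Leaving out 1 library at a time gave -0.24 to 0.002 for Gas5 (0.002 without IgM library 3), -0.70 to 0.17 for Snhg1 (0.17 without IgG1 library 3), -0.038 to 0.59 for Snhg3 (-0.038 without IgM library 3) and -0.82 to 0.10 for Snhg12 (0.10 without IgG1 library 3). The ranges of genes whose sign held were -0.71 to -0.34 for Malat1, -1.19 to -0.27 for Neat1, -0.85 to -0.20 for Snhg5, 0.09 to 0.46 for Snhg6 and 0.38 to 1.06 for Snhg8. The summed FPKM of the 7 hosts differed by 10.8 (IgG1 minus IgM), and by -7.56 after rescaling without Jchain and 1.18 (without IgG1 library 2) to 17.48 (without IgG1 library 3) with 1 library left out. 

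Genes called higher in IgG1 numbered 387, and 2 with no filter, 188 with quantile normalization, 177 when rescaled without Jchain, 3 with no intensity trend, 118 with the length and GC trends removed, 190 with these and the replicate block, and 78 to 394 with 1 library left out. Genes called lower numbered 160, and 4 with no filter, 393 when rescaled without Jchain, 5 with no intensity trend, 104 with the length and GC trends removed, and 30 to 251 with 1 library left out. Median centring gave 489 higher and 118 lower, quantile normalization 200 lower. Over the 8 lists pooled, 9 genes were higher, and 0 with no filter or no intensity trend, 3 with quantile normalization or rescaled without Jchain, 1 with the trends removed, 7 with these and the replicate block, and 0 to 11 with 1 library left out. The 1 gene called lower became 3 with a pseudocount of 5, 0 with no filter or no intensity trend, 2 with a filter at 5 FPKM, with quantile normalization or with the replicate block, 6 when rescaled without Jchain, and 0 to 8 with 1 library left out. At an unadjusted p under 0.05, limma gave 18 list genes higher and 15 lower with no filter, and 13 higher and 9 lower with no intensity trend. The share of all genes at that p was not counted for either setting. Why these 2 settings gave fewer calls was not tested.

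Libraries with the same number had correlations of their deviations of 0.10, -0.03 and -0.001, beside -0.098 to 0.096 for unlike numbers. With 3 libraries a group these values cannot exclude that equal numbers share an origin, and the labels do not say. The replicate block gave 432 genes higher and 154 lower and no call among the 9. With 3 libraries a group, an exact permutation test cannot go below 0.1. The depth behind Snhg12 (about 4 fragments in IgG1 library 3) and Snhg8 (about 20 in IgM library 2) limits those values.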
